A study of Mus musculus with 108 samples.

Results

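Collagens, laminins and integrins were described in single cells from mouse cultures of germline stem cells. Members were the rows of the expression table whose symbol named a numbered collagen chain, a laminin alpha, beta or gamma chain, or began like a numbered integrin subunit, and 79 of the 26218 genes in the table met this rule. They comprised 43 collagen chains, 11 laminin chains, 21 integrin subunits and 4 other genes that carry an integrin name. Integrin subunits named by a letter, such as Itgav, were outside the rule.

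The germline stem cell-like cells (GSCLC) came as line GSCLC1 with 30 cells and line GSCLC4 with 24 cells, and the germline stem cells (GSC) came as line GSC1 with 30 cells and line GSC2 with 24 cells. GSC are cultured mouse spermatogonial stem cells, and GSCLC are comparable cultures grown out of reconstituted testes. Per the labels, GSCLC4 came from reconstituted testes after 3 weeks of culture at 34 °C and GSC2 from separate testes of P7 mice; the labels used here give no such detail for GSCLC1 and GSC1. All cells shared the 129/SvJcl x C57BL/6 background, the AcrAct_EGFP reporter and a medium with GDNF, bFGF, LIF and EGF, and all were dispersed with trypsin before RNA was taken. Each sample was 1 cell read by SC3-seq, which sequences the 3′ ends of polyadenylated RNA, so values are in RPM, reads at 3′ ends scaled to a common total per cell, and are not divided by transcript length. Cells of a line share a culture, so a type was represented by 2 lines, each of them 1 culture. The p-values and standard errors (SE) come from the spread between lines and not between cells. In the limma fit each gene's variance was moderated toward the trend over all tested genes. An SE can thus be smaller or larger than the gene's own lines would give.

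The cell GSC1_MS094_146 stood apart, is called the feeder-like cell after its markers, and was kept out of the values of GSC1, which left 29 GSC1 cells. The cells of the 4 lines without it are called germ cells. In the feeder-like cell, 3 of 10 germ cell markers reached 5 RPM and their sum was 1277 RPM, against sums of 2836 to 8942 RPM in the germ cells. Dazl was at 517 RPM, Ddx4 at 300.4 RPM and Mael at 451 RPM in the feeder-like cell, while Gfra1 and Sall4 were at 0. Of 23 fibroblast and feeder cell markers, 16 reached 5 RPM in the feeder-like cell, and their sum was 66689 RPM, against 30.5 to 6736 RPM in the germ cells. Vim at 13880 RPM, Postn at 10353 RPM and S100a6 at 9592 RPM led that list in the feeder-like cell, whereas Pdgfra, Pdgfrb, Lum and Twist1 were at 0. Of the 10 Sertoli cell markers and the 8 endothelial and blood markers none was detected in it. The 9 Leydig and peritubular cell markers summed to 299.1 RPM in it, with Star at 249 RPM and Des at 49.5 RPM, against at most 144.3 RPM in a germ cell. The depth was 3.03 M reads in the feeder-like cell, against 2.00 to 6.04 M reads in the germ cells. In it 5748 genes were detected, against 7305 to 10959. The summed signal of synthetic spike-in RNAs was 91373.5 RPM in it, against 12609.6 to 77134.5 RPM in the germ cells.

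Collagens are secreted or membrane-bound proteins that assemble from 3 chains, and laminins are basement membrane proteins that assemble from an alpha, a beta and a gamma chain. Integrins are receptors made of an alpha and a beta subunit that bind such matrix proteins and link them to the cytoskeleton. In the testis, spermatogonial stem cells sit on a laminin-containing basement membrane, and antibodies to the integrin subunits of Itga6 and Itgb1 have been used to enrich mouse spermatogonial stem cells. Cultures of these cells are commonly kept on feeder fibroblasts, a cell type known for making collagens.

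Promoter sequences were available for 59 of the 79 members from RefSeq (GRCm38.p6, the assembly of the authors' build mm10). Upstream windows of 150 bases are shown for a member found in nearly every cell, Itgb1, and for one that reached 5 RPM in the feeder-like cell alone, Col3a1. The windows end at the base before the annotated start, at chr8:128685504-128685653 on the plus strand for Itgb1 and at chr1:45311388-45311537 on the plus strand for Col3a1. Capitals mark matches, on either strand, to the motifs GGGCGG (the GC box), CCAAT (the CCAAT box) and TATAAA (the TATA box).
Itgb1: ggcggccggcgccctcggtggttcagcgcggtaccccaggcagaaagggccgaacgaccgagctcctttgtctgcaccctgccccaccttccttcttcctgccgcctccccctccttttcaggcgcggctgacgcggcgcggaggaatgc
Col3a1: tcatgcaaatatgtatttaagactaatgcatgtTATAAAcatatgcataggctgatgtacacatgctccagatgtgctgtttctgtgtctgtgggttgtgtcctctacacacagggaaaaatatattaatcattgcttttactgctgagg
The Itgb1 window held 70% G or C and no match to the 3 motifs, and the Col3a1 window held 37.3% G or C and 1 match, to TATAAA, with no overlap with another motif. Among all 32851 RefSeq promoter entries, 28.6% of windows of this length held GGGCGG, 24.5% held CCAAT and 7.57% held TATAAA. The annotated starts of Col4a1 and Col4a2, which encode the chains of the main basement membrane collagen, lie on opposite strands of chromosome 8, and the genes overlap from 11312805 to 11312889.

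Most members were low or silent in the germ cells. A line mean of at least 5 RPM in any of the 4 lines was reached by 30 members and one of at least 20 RPM by 13, while 19 stayed under 1 RPM in every line. At 5 RPM a cell had between 10 and 30 reads of a gene, depending on its depth. The 8 members at 0 in all germ cells were Col4a6, Col8a1, Col9a1, Col15a1, Lamb3, Lamc3, Itgb8 and Itgb2l. For these, a count of 0 over all germ cells allows a share of up to 2.80% of cells with a read, as far as counting error goes.

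Itgb1, the beta subunit shared by most matrix-binding integrins (chromosome 8, 128685654 to 128733579), was the most evenly present member. Its lowest, median and highest values were 5.28, 74.9 and 369 RPM in GSCLC1 cells, 6.45, 153.2 and 425 RPM in GSCLC4 cells, 1.83, 75.2 and 252 RPM in GSC1 cells and 3.92, 101.6 and 283 RPM in GSC2 cells. It reached 5 RPM in 100% of GSCLC1 and GSCLC4 cells, in 89.7% of GSC1 cells and in 95.8% of GSC2 cells. The ranges of the 4 lines overlapped nearly in full. Line means were 109.6 and 148.7 RPM in the GSCLC lines and 92.7 and 101.5 RPM in the GSC lines.

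Itga6, an alpha subunit of laminin receptors (chromosome 2, 71786886 to 71858427), was the leading alpha subunit in every line. Lowest, median and highest values were 0, 43.8 and 342 RPM in GSCLC1 cells, 0.231, 61.4 and 223 RPM in GSCLC4 cells, 0, 39.1 and 495 RPM in GSC1 cells and 0.200, 78.2 and 379 RPM in GSC2 cells. Line means were 69.0005 and 75.3 RPM in the GSCLC lines, both below the 129.1 and 93.6 RPM of the GSC lines, although the single cells overlapped widely. The medians did not follow this order, and the lowest was that of GSC1. Itgb1 made up 45.5% and 51.0% of the summed level of the 21 integrin subunits in GSCLC1 and GSCLC4, and 33.7% and 39.8% in GSC1 and GSC2. Itga6 made up 28.7% and 25.8% of it in GSCLC1 and GSCLC4, and 46.9% and 36.7% in GSC1 and GSC2.

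Itga1, an alpha subunit of a collagen receptor (chromosome 13, 114958079 to 115101964), was found in fewer cells. It reached 5 RPM in 50.0% of GSCLC1 cells (95% Wilson interval 33.2 to 66.8%) and 45.8% of GSCLC4 cells (27.9 to 64.9%), against 17.2% of GSC1 cells (7.60 to 34.5%) and 20.8% of GSC2 cells (9.24 to 40.5%). Its medians were 3.61 RPM in GSCLC1 cells and 4.58 RPM in GSCLC4 cells, against 0 in both GSC lines, and its line means were 31.2 and 28.6 RPM in the GSCLC lines, against 11.002 and 15.2 RPM in the GSC lines. Reads of Itga1 cannot be told from those of Pelo where these overlapping genes share bases, as the sources used here do not say how such reads were counted. The same holds for Itgb4 with Galk1 and for Itgb1bp1 with Asap2 and Cpsf3. Such intervals cover counting error only, since reads were amplified by PCR and carry no molecular identifiers.

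Itgb5, a beta subunit that pairs with Itgav in vitronectin receptors, had line means of 8.14 and 11.8 RPM in GSCLC1 and GSCLC4 and 19.4 and 21.4 RPM in GSC1 and GSC2. Its median was under 1 RPM in every line, so these means rested on the 16.7% to 33.3% of cells at 5 RPM. Itgb3, the beta subunit known from platelets, had line means of 7.50 and 10.51 RPM in the GSCLC lines and 4.92 and 2.98 RPM in the GSC lines. Itgb4, which pairs with Itga6 in hemidesmosomes, had line means of 1.70 to 3.38 RPM. The collagen receptor subunits Itga2, Itga10 and Itga11 and the leukocyte subunits Itgb2 and Itgb7 averaged under 5 RPM in each line.

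**Figure D1:**
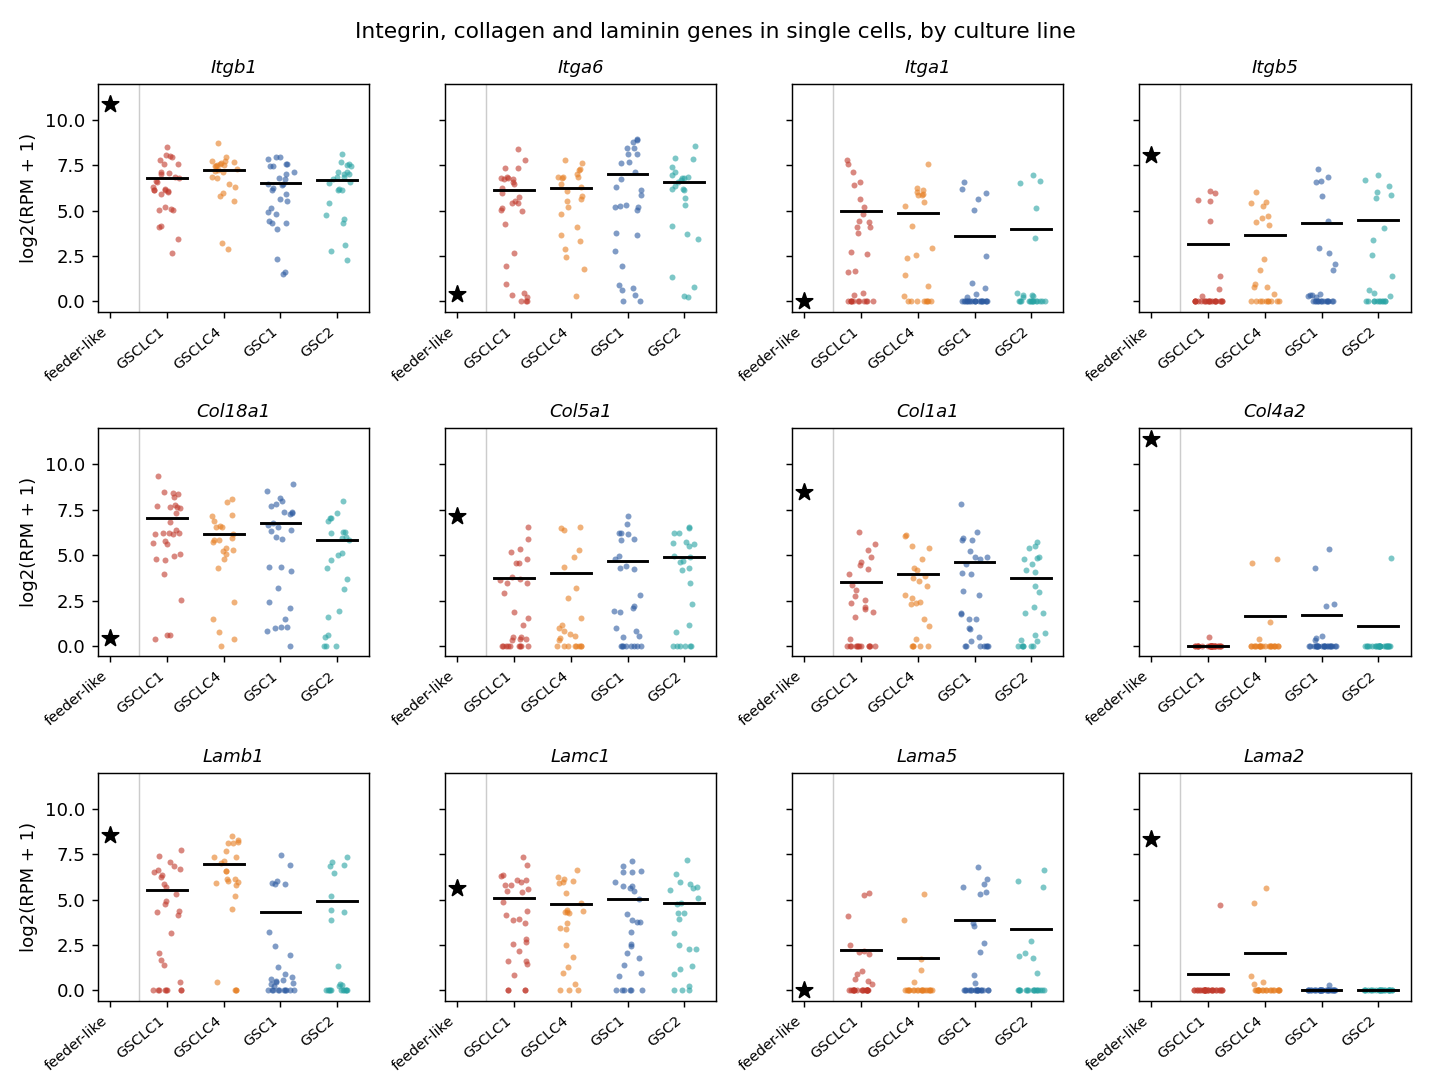
Single-cell values of 12 genes as log2(RPM + 1), with the feeder-like cell as a star at the left, then cells of GSCLC1, GSCLC4, GSC1 and GSC2 as points and the log2 of each line's mean + 1 as a bar. Itgb1 is spread over similar values in the 4 lines, Lamb1 is found in more cells of the GSCLC lines, and Col4a2 and Lama2 are near 0 in most germ cells and high in the feeder-like cell.

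Col18a1, a basement membrane collagen whose end piece is released as endostatin (chromosome 10, 77052178 to 77166530), was the leading collagen. Lowest, median and highest values were 0.287, 73.2 and 648 RPM in GSCLC1 cells, 0, 54.3 and 270.2 RPM in GSCLC4 cells, 0, 78.4 and 485 RPM in GSC1 cells and 0, 32.5 and 258 RPM in GSC2 cells. Line means of 133.1 and 70.7 RPM in the GSCLC lines overlapped with 107.6 and 56.1 RPM in the GSC lines. Col18a1 alone made up 52.3% and 33.9% of the summed level of the 43 collagens in GSCLC1 and GSCLC4, and 45.6% and 36.8% in GSC1 and GSC2. By their highest line mean, the next collagens were the fibril-forming Col5a1 and Col1a1 and the membrane-spanning Col13a1 and Col17a1. Their line means lay between 1.37 and 28.5 RPM.

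Chains that build 1 collagen were rarely found together, and at least 1 chain of each pair was itself rare. At 5 RPM, Col1a2 was found in 3 germ cells, Col5a2 in 4, Col4a1 in 2 and Col4a2 in 5. Few joint cells were therefore possible, and whether partner chains go together was not tested. Col1a1 reached 5 RPM in 36.7% of GSCLC1, 54.2% of GSCLC4, 48.3% of GSC1 and 45.8% of GSC2 cells, but its partner Col1a2 accompanied it at 5 RPM in 1 germ cell. Col5a1 was at 5 RPM together with Col5a2 in 1 germ cell. Col4a1 and Col4a2 reached 5 RPM together in 0 germ cells, which allows up to 2.80% of cells. Col3a1, the chain of a fibrillar collagen of loose connective tissue, never passed 1.08 RPM in a germ cell.

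Lamb1, a widely used laminin beta chain (chromosome 12, 31265146 to 31329644), had a lowest, median and highest value of 0, 19.6 and 213 RPM in GSCLC1 cells and 0, 82.1 and 359.6 RPM in GSCLC4 cells. In GSC1 and GSC2 cells these values were 0, 0.418 and 172.5 RPM and 0, 0.218 and 162.2 RPM. Medians of the GSCLC lines were thus well above those of the GSC lines, while the ranges overlapped. Lamb1 reached 5 RPM in 60.0% of GSCLC1 cells (42.3 to 75.4%) and 83.3% of GSCLC4 cells (64.1 to 93.3%), against 24.1% of GSC1 cells (12.2 to 42.1%) and 37.5% of GSC2 cells (21.2 to 57.3%). The median depth was 3.19 and 3.26 M reads in GSCLC1 and GSCLC4, against 3.72 and 4.30 M reads in GSC1 and GSC2. The median number of genes detected was 8607 and 9866 in GSCLC1 and GSCLC4, against 8811 and 9181.5 in GSC1 and GSC2. The part of depth and detection in the Lamb1 shares was not tested. Within GSC1, Lamb1 averaged 30.3 RPM in the 16 cells with serial numbers of 129 or higher and 5.25 RPM in the 13 cells with lower numbers.

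Lamc1, the most common laminin gamma chain (chromosome 1, 153218922 to 153332786), had line means of 33.8 and 26.4 RPM in the GSCLC lines and 31.3 and 27.4 RPM in the GSC lines, which overlapped. Lama5, the alpha chain of a laminin of mature basement membranes, had line means of 3.75 and 2.39 RPM in the GSCLC lines, against 13.9 and 9.59 RPM in the GSC lines. It reached 5 RPM in 10.0% of GSCLC1, 8.33% of GSCLC4, 31.03% of GSC1 and 16.7% of GSC2 cells. Lama1 and Lama2 averaged under 5 RPM in each line.

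A full set of laminin chains in 1 cell was uncommon. Any alpha chain reached 5 RPM in 36.4% of all germ cells, any beta chain in 61.7% and any gamma chain in 65.4%. The joint shares depend on such single shares, and whether the chains go together was not tested. At 5 RPM, at least 1 alpha, 1 beta and 1 gamma chain were found together in 6.67% of GSCLC1, 20.8% of GSCLC4, 10.3% of GSC1 and 12.5% of GSC2 cells, or in 13 germ cells in all. A beta and a gamma chain without any alpha chain were found in 43.3% and 41.7% of GSCLC1 and GSCLC4 cells, against 17.2% and 12.5% of GSC1 and GSC2 cells. Lamb1 and Lamc1 were found together in 12 of 30 GSCLC1 cells (24.6 to 57.7%), 54.2% of GSCLC4 cells (35.1 to 72.1%), 13.8% of GSC1 (5.50 to 30.6%) and 16.7% of GSC2 cells (6.68 to 35.9%). Their rank correlation across cells was between -0.28 and 0.088 in the 4 lines of 24 to 30 cells, so cells high in 1 chain were not regularly high in the other.

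The pair of leading integrin subunits was found in most cells. Itga6 and Itgb1 reached 5 RPM together in 73.3% of GSCLC1, 87.5% of GSCLC4, 68.97% of GSC1 and 83.3% of GSC2 cells, or 77.6% of all germ cells. Itga1 and Itgb1 were found together in 50.0% and 45.8% of GSCLC1 and GSCLC4 cells, against 13.8% and 20.8% of GSC1 and GSC2 cells. Because Itgb1 reached 5 RPM in 89.7% to 100% of the cells of a line, these shares largely repeat those of the alpha subunits alone. Itga6 with Itgb4 was found in 9 germ cells. The rank correlation of Itga6 with Itgb1 was 0.51 over 30 GSCLC1 cells, 0.20 over 24 GSCLC4 cells, 0.20 over 29 GSC1 cells and 0.086 over 24 GSC2 cells. These correlations are descriptions, since cells of a line share a culture and both values share the scaling of their cell.

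**Figure D2:**
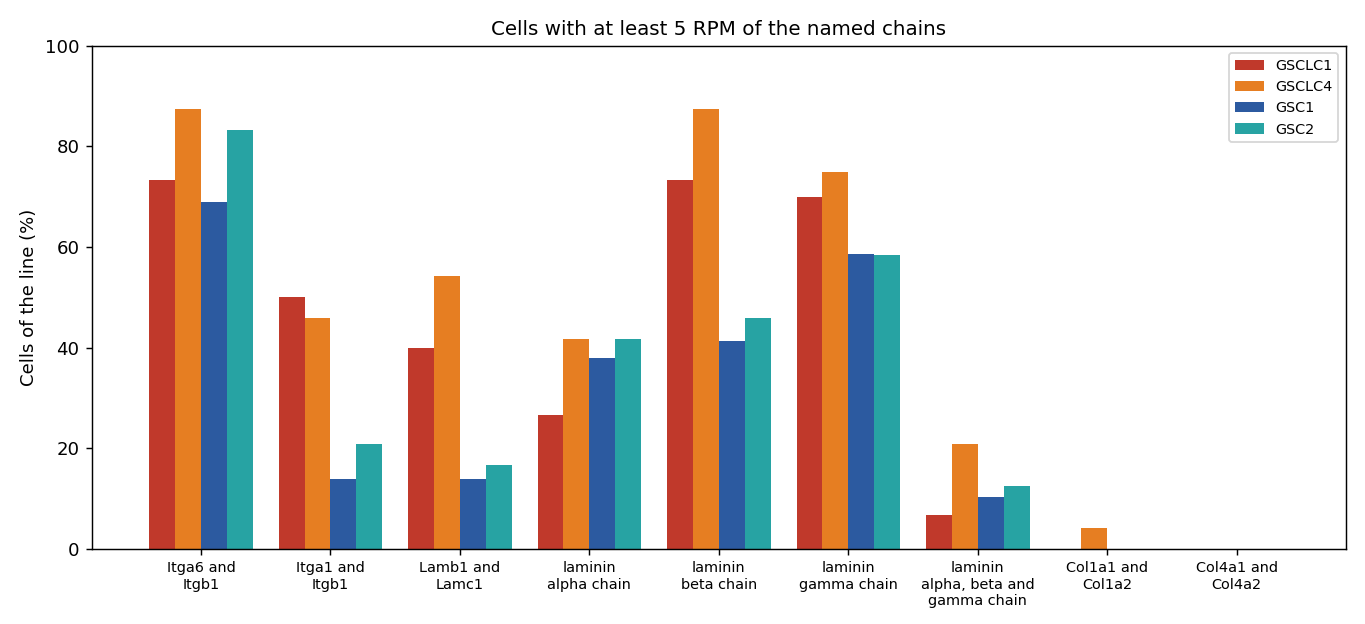
Percentage of cells (y axis) of GSCLC1, GSCLC4, GSC1 and GSC2 (bars, left to right) with at least 5 RPM of each gene named on the x axis. For a kind of laminin chain, any chain of that kind at 5 RPM counts. Itga6 with Itgb1 is found in 68.97% to 87.5% of cells, all 3 kinds of laminin chain in 6.67% to 20.8%, and Col4a1 with Col4a2 in 0.

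GSCLC lines were compared with GSC lines over the 10519 genes, 24 members among them, whose mean reached 5 RPM in 2 or more lines. The fit was limma on log2(line mean + 1 RPM) with Benjamini-Hochberg adjustment over the 10519 genes and a threshold of 0.05. It called 10 genes (7 higher and 3 lower in GSCLC, 0.0951% of those tested) and 0 of the 24 members. At an unadjusted p under 0.05 there were 6 members, 4 of them higher and 2 lower, set beside 8.93% of all genes tested. The lines of the types did not overlap for 13 of the 24 members, 9 of them above and 4 below, while 39.1% of all tested genes did not overlap. The median log2 fold change was 0.17 over the 24 members and 0.029 over all tested genes. With 2 lines against 2, an exact permutation test of a single gene cannot go below a p of 0.333.

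The 6 members with the smallest unadjusted p included the collagens Col2a1 and Col17a1. Col2a1, the chain of cartilage collagen, averaged 13.0 ± 0.914 RPM in GSCLC lines and 1.74 ± 2.29 RPM in GSC lines (SD, n = 2 each), a log2 fold change of 2.67 ± 0.85 (SE, limma adjusted p = 0.412). Col17a1, a transmembrane collagen of hemidesmosomes, averaged 17.1 ± 5.36 RPM in GSCLC lines and 2.60 ± 1.74 RPM in GSC lines, a log2 fold change of 2.39 ± 0.70 (limma adjusted p = 0.409). The highest single cell held 36.3% of the Col17a1 sum in GSCLC1 and 27.04% of the Col2a1 sum there, so few cells carried these means.

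Lamb1 averaged 84.1 ± 55.1 RPM in GSCLC lines and 24.3 ± 7.32 RPM in GSC lines, with a log2 fold change of 1.61 ± 0.45 and the lowest adjusted p of the members (limma, 0.348). Without GSCLC1 its log2 fold change was 2.33, and without GSCLC4 it was 0.90. In each of these fits the lone GSCLC line is assumed to vary like the other lines. With GSC1 cells of serial numbers under 129 alone the log2 fold change was 2.46, and with the others alone it was 1.29. Summed Sertoli cell markers averaged 24.7 and 88.7 RPM in GSCLC1 and GSCLC4 (0 to 152 and 0.243 to 271 RPM per cell), against 15.8 and 8.28 RPM in GSC1 and GSC2 (0 to 137.5 and 0 to 58.5 RPM). Of the 10 Sertoli cell markers 2 were tested, 2 with a positive and 0 with a negative log2 fold change. Wt1 averaged 11.3 and 25.8 RPM in GSCLC1 and GSCLC4, against 4.07 and 0.550 RPM in GSC1 and GSC2. Amh was at 0 in all 4 lines. The part of Sertoli cell RNA in the Lamb1 result was not tested.

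Itga1 averaged 29.9 ± 1.86 RPM in GSCLC lines and 13.1 ± 2.95 RPM in GSC lines, a log2 fold change of 1.15 ± 0.45 (limma adjusted p = 0.505). Itga6 averaged 72.1 ± 4.42 RPM in GSCLC lines and 111.3 ± 25.1 RPM in GSC lines, a log2 fold change of -0.60 ± 0.26 (limma adjusted p = 0.537). Lama5 averaged 3.07 ± 0.959 RPM in GSCLC lines and 11.7 ± 3.02 RPM in GSC lines, a log2 fold change of -1.65 ± 0.70 (limma adjusted p = 0.537). For these 3 genes the line means of the types did not overlap, but no difference passed the adjusted threshold. The line medians of Itga6 did overlap between the types.

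Other laminins and integrins lay nearer to 0 or were less certain. Itgb1 had a log2 fold change of 0.39 ± 0.25 (limma adjusted p = 0.686) and Lamc1 one of 0.026 ± 0.39 (limma adjusted p = 0.994). Itgb5 had -0.98 ± 0.52 and Itga3, another laminin receptor subunit, -0.53 ± 0.78. Lama3 had -0.85 ± 0.77 and Lamb2 -0.19 ± 0.89, and each changed its sign when a line was left out. The limma adjusted p of the 24 members ranged from 0.348 to 1.00.

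Among the remaining collagens, Col18a1 had a log2 fold change of 0.32 ± 0.36, Col13a1 -0.24 ± 0.48 and Col1a1 -0.42 ± 0.54. Col5a1 averaged 13.9 ± 2.24 RPM in GSCLC lines and 26.6 ± 2.78 RPM in GSC lines, a log2 fold change of -0.90 ± 0.46 (limma adjusted p = 0.601). Col8a2, a short-chain collagen, had 1.52 ± 0.86, and Col25a1, a membrane-spanning collagen, -0.74 ± 0.81. The fibroblast and feeder marker sum averaged 384 and 674 RPM in GSCLC1 and GSCLC4 (30.5 to 1240 and 229.7 to 1490 RPM per cell), against 1225 and 853 RPM in GSC1 and GSC2 (157.97 to 6736 and 220.2 to 1826 RPM). Of its 23 genes 12 were tested, 4 with a positive and 8 with a negative log2 fold change, and 1 of them, S100a6, was called lower. Col5a1 and Itgb5, whose line means were also lower in GSCLC, were present in the feeder-like cell at 140 and 265 RPM, whereas Lama5 and Itga6 were at 0 and 0.330 RPM there. The part of fibroblast RNA in these differences was not tested.

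The 4 genes with an integrin name that are not integrin subunits were set apart. Itgb3bp, which encodes the centromere protein CENP-R, had line means of 74.96 and 76.4 RPM in the GSCLC lines and 63.8 and 32.98 RPM in the GSC lines, a log2 fold change of 0.71 ± 0.34. Itgb1bp1, which encodes a cytoplasmic partner of the Itgb1 tail, had line means of 58.0 and 44.7 RPM in the GSCLC lines and 45.9 and 30.8 RPM in the GSC lines. Itgb1bp2, a muscle chaperone also known as melusin, averaged 0 to 3.82 RPM, and Itgb1bp3, named Nmrk2 by RefSeq, under 1 RPM.

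**Figure D3:**
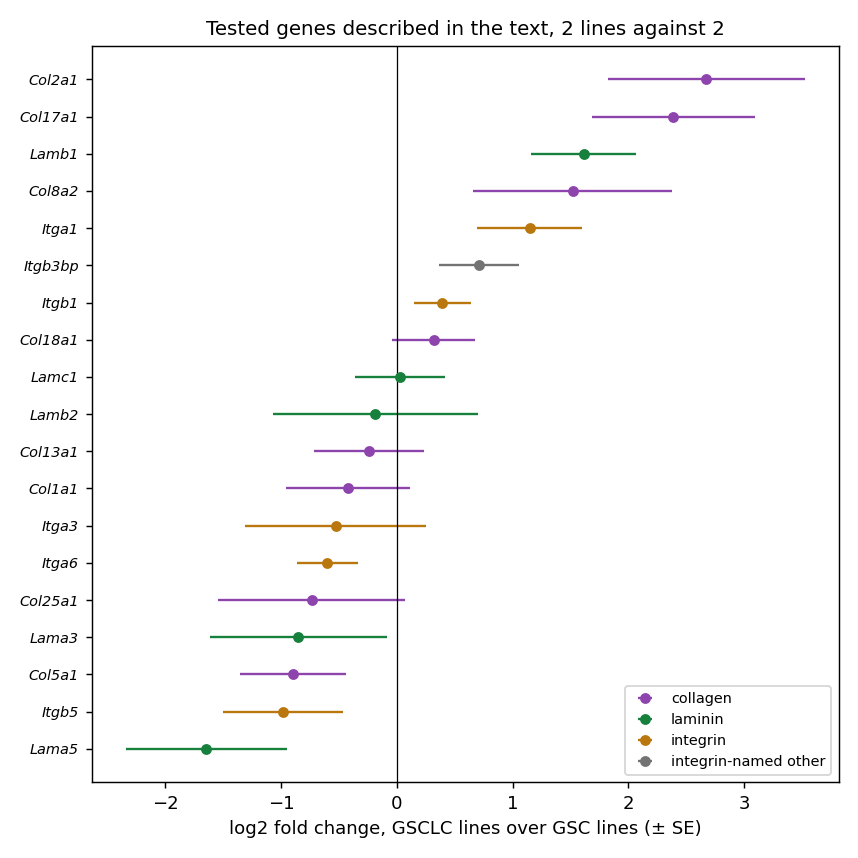
Log2 fold changes of line means, GSCLC over GSC, for tested members whose values the text gives (points, one row per gene; bars show ± 1 SE; 2 lines against 2). Col2a1, Col17a1 and Lamb1 have the highest values at 2.67, 2.39 and 1.61 and Lama5 the lowest at -1.65, and none passes the adjusted threshold.

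Lines of the same type also differed, which was described without a test, as there was 1 line on each side. Between GSCLC1 and GSCLC4, 27 members had at least 5 RPM in either line, and 4 were at least 2-fold higher and 6 at least 2-fold lower in GSCLC1, set beside 6.34% and 11.8% of all such genes. Lamb2, a laminin beta chain of the neuromuscular junction and kidney, was at 14.7 RPM in GSCLC1 and 1.45 RPM in GSCLC4. Lamb1 was at 45.2 RPM in GSCLC1 and 123.0 RPM in GSCLC4, and Col22a1 at 0.354 and 11.9 RPM. Single cells can carry such values: 1 of the 24 GSCLC4 cells held 89.2% of the Col20a1 sum of that line.

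Between GSC1 and GSC2, 21 members had at least 5 RPM in either line. Col25a1 was the 1 member at least 2-fold higher in GSC1, at 13.5 RPM in GSC1 and 4.09 RPM in GSC2, set beside 8.3% of all such genes. Col22a1, Col14a1 and Col6a4 were the 3 members at least 2-fold lower in GSC1, set beside 8.26% of all such genes. Col6a4 was at 0.0428 RPM in GSC1 and 6.52 RPM in GSC2, where 4 cells reached 5 RPM. These 4 differences became 15 with the GSC1 cells of serial numbers under 129 alone and 9 with the others alone, and 16 with the feeder-like cell included.

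Summed matrix levels of the feeder-like cell lay above those of every germ cell. Its summed collagen level was 9119 RPM, against 4.58 to 717 RPM in the germ cells, its summed laminin level 756 RPM, against 0 to 479 RPM, and its summed integrin level 2262 RPM, against 3.39 to 651 RPM. In the feeder-like cell, 23 members reached 5 RPM and 49 were at 0. It was the highest of all cells in 19 of the 66 members that reached 5 RPM in any cell, set beside 3.39% of the 16218 genes that did, while no other cell was highest in more than 2 members. Col3a1, Col4a5, Col15a1 and Itga11 entered this count through the feeder-like cell alone. As a single cell has no replicate, no test was made.

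The collagens highest in the feeder-like cell are known from basement membranes and fibrils. Col4a2 was at 2763 RPM and Col4a1 at 808 RPM in the feeder-like cell, against highest germ cell values of 40.2 and 98.9 RPM. Col5a2 was at 1394 RPM, against at most 87.9 RPM in a germ cell, and Col3a1 at 1387 RPM, against at most 1.08 RPM. Col6a1, Col6a2 and Col6a3, the chains of a microfibril-forming collagen, were at 633, 332 and 277 RPM, and the type I chains Col1a1 and Col1a2 at 363 and 394 RPM. Col15a1, a basement membrane collagen related to Col18a1, was at 239 RPM in the feeder-like cell and at 0 in every germ cell. Col18a1, the leading collagen of the germ cells, was at 0.330 RPM in the feeder-like cell.

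Lamb1 and Itgb1 led the laminins and integrins of the feeder-like cell, and the next highest were Lama2 and Itgb5, with Itga6 near 0. Lama2, an alpha chain known from muscle and mesenchyme, was at 325 RPM in the feeder-like cell, against at most 48.6 RPM in a germ cell, and Lamb1 was at 381 RPM, against at most 359.6 RPM. Lamc1 was at 49.8 RPM, within the range of the germ cells. Itgb1 was at 1856 RPM, against at most 425 RPM, Itgb5 at 265 RPM, against at most 159.1 RPM, and Itga5, the fibronectin receptor subunit, at 122.3 RPM, against at most 69.7 RPM. Itga6 was at 0.330 RPM and Itga1 at 0 in the feeder-like cell.

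The feeder-like cell was also set beside the mean of the other 29 GSC1 cells, for the 32 members with at least 5 RPM on either side. At a threshold of 4-fold, 21 were higher and 10 lower in the feeder-like cell, set beside 7.18% and 75.6% of the 10390 genes of that kind. The median log2 difference was 4.24 over these members and -4.00 over all such genes, where 1 cell is set against a mean of many. A gene nearly absent from the feeder-like cell or from the other cells enters only through the opposite side. At 5 RPM there, it is already past 4-fold. These counts and medians thus follow in part from the filter. Among the higher members, only Itgb1, Lamb1, Itgb5, Col1a1 and Col5a1 averaged at least 5 RPM in the other GSC1 cells. The rest of the higher members entered through the feeder-like cell alone. Among the lower members, only Itgb1bp1 reached 5 RPM in the feeder-like cell, and the rest entered through the other GSC1 cells alone. Among the collagens 15 of 18 were higher, led by Col5a2 with a log2 difference of 10.38 and Col3a1 with one of 10.37, whose means in the other cells were 0.0486 and 0.0456 RPM. Of the 6 laminins of that set 2 were higher and 3 lower, and of the 6 integrin subunits 4 were higher and 2 lower.

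**Figure D4:**
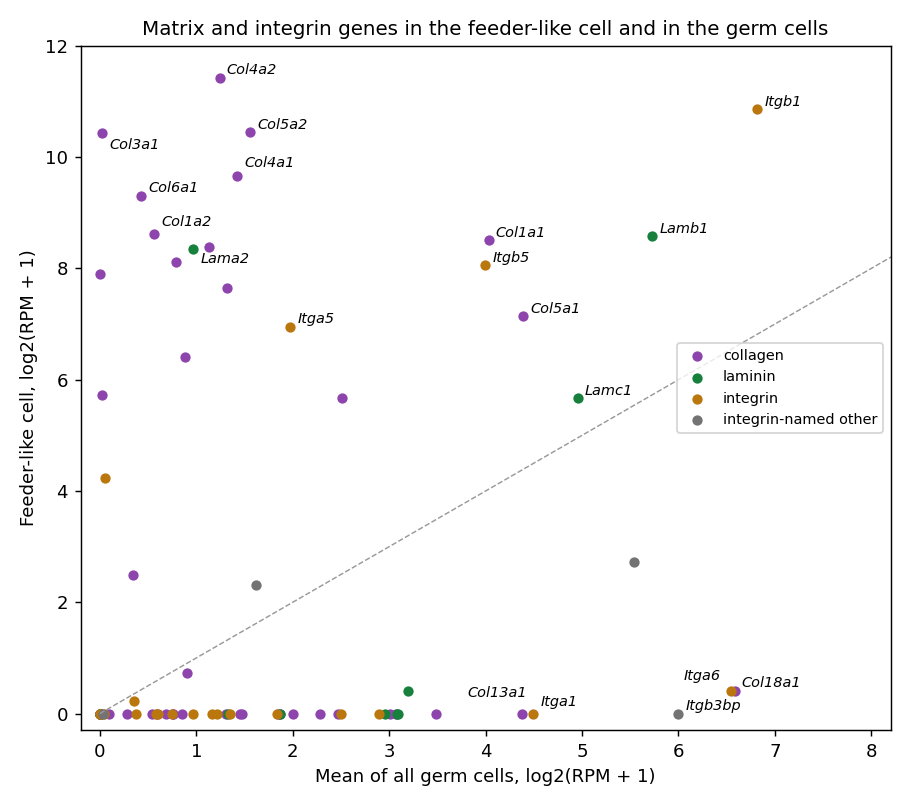
Level of each of the 79 members in the feeder-like cell (y axis) against the mean of all germ cells (x axis), both as log2(RPM + 1), with the line of equal levels dashed and selected genes named. Col4a2 and Col3a1 lie far above the line at 2763 and 1387 RPM in the feeder-like cell, and Col18a1 and Itga6 lie far below it at 0.330 RPM each.

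Other genes of the matrix and adhesion pathways were counted over 6 lists, of which 66 genes were tested between GSCLC and GSC lines. None passed the adjusted threshold in limma, and 8 of the 66 had an unadjusted p under 0.05, 4 of them higher and 4 lower, set beside 8.93% of all genes tested. Their median log2 fold change was -0.034. Of 12 matrix glycoproteins tested 2 were higher and 0 lower at an unadjusted p under 0.05. Of 14 genes of collagen synthesis 0 were higher and 2 lower, and of 16 adhesion adaptors 1 was higher and 1 lower. Of 10 genes of matrix remodelling 1 was higher and 0 lower, and of 13 matrix receptors and integrin partners 0 were higher and 1 lower. Fbn2, a microfibril protein, averaged 65.2 and 74.2 RPM in GSCLC1 and GSCLC4, against 33.4 and 30.2 RPM in GSC1 and GSC2, a log2 fold change of 1.10 ± 0.32 (limma adjusted p = 0.372). Fermt2, a kindlin that activates integrins, averaged 40.3 and 48.1 RPM in GSCLC1 and GSCLC4, against 93.2 and 79.4 RPM in GSC1 and GSC2. Its log2 fold change was -0.95 ± 0.29 (limma adjusted p = 0.412). Itgav, the only tested one of the 6 alpha subunits named by a letter, had a log2 fold change of -1.23 ± 0.58 (limma adjusted p = 0.566).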

How the data were processed

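Expression was measured by SC3-seq in 108 single cells of 4 culture lines. The deposited table gives expression signal as RPM for 26218 genes and 92 synthetic spike-in RNAs, which were left out of gene values and fits. Per the submitters' processing notes the authors used cutadapt 1.3, TopHat 1.4.1, Cufflinks 2.2.0 and the mouse build mm10. The counting of reads with several matches is not stated in the sources at hand. The most frequent value above 0 in a cell was taken as 1 read, which gave a median depth of 3.47 M reads per germ cell; 85.6% to 92.4% of values were whole reads within 0.05 read, too few for a count model. Line values were means over cells without the feeder-like cell, and no doublet caller was run. GSCLC and GSC lines were compared with limma 3.58.1 in R 4.3.3 (trended eBayes) on log2(mean + 1); the fit was tested on simulated data. Differences on this scale understate changes of low genes. Summaries used Python 3.11.15. Shares of cells use a level of 5 RPM. Members and gene lists were chosen with earlier results of these data known. Named genes were all members past the threshold (0), the 12 highest by line mean, the 12 highest in the feeder-like cell, the 3 largest changes per direction and family, the 5 largest differences per direction between lines of a type, a set of 15 laminin, collagen and integrin genes and up to 3 genes per pathway list; other members were named after their values were seen. Alternatives changed the pseudocount (10), the filter (none or 20 RPM), the summary over cells, the scaling, the variance model, the GSC1 cells used and the lines included. More than 20% of values were not whole reads for Col4a5, Col19a1, Itga10, Itgb6 and Itgb1bp3, whose levels are uncertain. RefSeq coordinates and promoters were matched by Entrez identifier; protein sequences were not used here. The values of 1 tested member are not reported here.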

Additional observations from a re-analysis of the deposited data

Results flagged for a closer look

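The feeder-like cell is outside every germ cell value above, and its matrix signal exceeded that of all germ cells. Its summed collagen signal was 9119 RPM, against at most 717 RPM in a germ cell. The summed laminin signal of the feeder-like cell was 756 RPM, against at most 479 RPM in a germ cell, and its summed integrin signal was 2262 RPM, against at most 651 RPM. The label of this cell is GSC, and the fibroblast and feeder marker sum was 66689 RPM in it, against at most 6736 RPM in a germ cell.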

How the results depend on the processing

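No member was called under any alternative except without GSCLC1, where 1 was (Lamb1; range without each line 0 to 1), and no gene of the pathway lists was called. The count of all genes called was 10, against 20 with a pseudocount of 10, 0 without a filter, 21 with a filter of 20 RPM, 19 with means of log values, 3 with trimmed means, 17 with quantile normalization, 0 without a variance trend, 4 and 3 with GSC1 cells of serial numbers under 129 and of 129 or higher, and 3 to 39 when a line was left out. The 4 members past 2-fold between GSC1 and GSC2 became 0 with a pseudocount of 10 or a filter of 20 RPM, 16 with the feeder-like cell, and 15 and 9 with the lower and higher serial numbers alone. The 10 members past 2-fold between GSCLC1 and GSCLC4 numbered 3 when the pseudocount was 10 and 1 when the filter was 20 RPM. Among 24 tested members 15 kept the sign of their log2 fold change throughout, and 18 of 278 alternative values changed it. Leaving out a line gave ranges of -0.15 to 0.78 for Col18a1, -0.15 to 0.20 for Lamc1, -0.62 to 0.14 for Col13a1, -0.85 to 0.00030 for Col1a1, -1.82 to 0.12 for Lama3, -1.53 to 1.16 for Lamb2, -0.82 to 1.29 for Col14a1 and -0.76 to 1.64 for Col22a1. Quantile normalization gave -0.019 for Lamc1 and -0.13 for Col22a1, and a pseudocount of 10 gave 0.067 for Lamb2. GSC1 cells under 129 alone gave -0.12 for Lamc1, 0.029 for Itga3 and 0.55 for Lamb2, and those of 129 or higher gave 0.71 for Lama3 and -0.18 for Col22a1. The cause of these changes was not tested. No paired analysis was possible because the serial numbers of the cells are not shared between lines. Cells at 0 may hold RNA that the depth of 2.00 to 6.04 M reads did not show.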

Other observations

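The feeder-like cell also held partners of its collagens. Lox, which crosslinks collagen, was at 10358 RPM in the feeder-like cell, against line means of 0.104 RPM in GSCLC1, 0.0908 RPM in GSCLC4, 4.65 RPM in GSC1 and 0.00853 RPM in GSC2. Timp1, an inhibitor of matrix proteases, was at 15831 RPM in it, against line means of 47.9 RPM in GSCLC1, 69.5 RPM in GSCLC4, 83.9 RPM in GSC1 and 38.5 RPM in GSC2. Of 22 matrix glycoproteins with at least 5 RPM in the feeder-like cell or in the mean of the other GSC1 cells, 14 were at least 4-fold higher in the feeder-like cell and 6 lower. Of 20 genes of collagen synthesis 11 were higher and 2 lower, and of 16 adhesion adaptors 3 were higher and 6 lower. Of 11 genes of matrix remodelling 5 were higher and 4 lower, and of 15 matrix receptors and integrin partners 7 were higher and 5 lower. The higher glycoproteins Fn1, Sparc, Fbn1, Thbs1, Dcn and Postn are also among the fibroblast and feeder markers after which the cell was named. The same is true of Mmp2 and Timp3 among the higher remodelling genes, so these 2 lists are no separate evidence on the kind of cell. Over all genes compared in this way, 7.18% were higher and 75.6% lower. The filter on either side bears on these counts too.

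The cell with the next highest fibroblast and feeder marker sum, GSC1_MS094_147, had 6736 RPM of these markers, with Vim at 2604 RPM. Its Col1a2, Col3a1, Col4a1 and Col5a2 were at 0, Col4a2 was at 0.265 RPM and Itgb1 at 176.7 RPM, and its germ cell marker sum was 4172 RPM.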
